A study of Mus musculus with 19 samples.

Results

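The 36 genes described here build and drive skeletal muscle fibers or were named by the study as secretory candidates. They are the rows of the deposited table whose Ensembl identifiers map to a fixed list of symbols, and 36 of 36 symbols were found among 46078 genes. By role they comprise 8 genes of the thin filament, 6 of the thick filament and its light chains, 7 of the Z-disc and elastic scaffold, 6 of calcium release and uptake, 4 of muscle energy metabolism, the transcription factors Myod1 and Myf6, and the secretory candidates Dhrs7c, Art5 and Fndc5. RNA-seq of 19 mouse samples was used. It covered 3 normal mammary glands of age-matched wild-type mice (MGWT), 4 glands (MGN) and 4 tumors (TN) with wild-type p53 in fibroblasts, and 4 glands (MGNP) and 4 tumors (TNP) with mutant p53 in fibroblasts.

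All MGN, MGNP, TN and TNP mice carried MMTV-neu, a transgene that drives the neu oncogene in mammary epithelium. MGN replicate 1 and all 4 TN tumors also carried Fsp-Cre, which expresses Cre recombinase in fibroblasts. MGN replicates 2, 3 and 4 carried the conditional p53wm-R172H/+ allele without Cre, so the MGN group holds both control genotypes. All MGNP and TNP samples carried MMTV-neu, p53wm-R172H/+ and Fsp-Cre. The MMTV-neu mice were of a mixed FVB, C57 and BALB/c background. Neither the background of the wild-type mice nor the ages of any mice were in the sources used here. The MGN and MGNP glands came from tumor-bearing mice but held no malignant lesion. TNP replicates 1 and 2 have library names with the same tumor number, and whether they came from 1 animal was not given. The study calls the samples of a group biological replicates, and p-values measure the spread between them.

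Skeletal muscle contracts when myosin heads of the thick filament pull on actin of the thin filament within repeating units called sarcomeres. An action potential opens Cacna1s, the voltage sensor of the muscle membrane, which gates Ryr1, the calcium release channel of the sarcoplasmic reticulum. Calcium then binds troponin C and frees the thin filament, and the pump Atp2a1 returns it to the store. Fast and slow fibers use different genes for the same part, so Tnnt3, Tnni2, Tnnc2 and Mylpf mark fast fibers while Tnnt1, Tnni1, Tnnc1 and Myl2 mark slow fibers. Skeletal muscle lies directly beneath and beside several mouse mammary glands and is not part of the gland.

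Promoter letters of 4 members are shown because these genes carried the main patterns below. Acta1 and Ckm had among the highest levels in the glands rich in muscle RNA, Tnnt1 represents the slow isoforms, and Fndc5 was higher in all 8 tumors than in any MGN gland. Each line gives the 250 bases before the annotated start, 5′ to 3′ on the gene's strand, from RefSeq on GRCm38.p6. Acta1 lies at chr8:123894776-123895025 on the minus strand, Ckm at chr7:19410844-19411093 on the plus strand, Tnnt1 at chr7:4515976-4516225 on the minus strand and Fndc5 at chr4:129136749-129136998 on the plus strand. Capitals mark the E-box CANNTG, the letters TATAAA and the CArG box, each searched on both strands and without overlap between motifs in these lines.
Acta1: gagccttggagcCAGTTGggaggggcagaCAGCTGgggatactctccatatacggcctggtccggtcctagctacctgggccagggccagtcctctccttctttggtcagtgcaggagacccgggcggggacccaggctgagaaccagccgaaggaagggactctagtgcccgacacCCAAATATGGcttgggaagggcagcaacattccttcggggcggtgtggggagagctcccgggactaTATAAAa
Ckm: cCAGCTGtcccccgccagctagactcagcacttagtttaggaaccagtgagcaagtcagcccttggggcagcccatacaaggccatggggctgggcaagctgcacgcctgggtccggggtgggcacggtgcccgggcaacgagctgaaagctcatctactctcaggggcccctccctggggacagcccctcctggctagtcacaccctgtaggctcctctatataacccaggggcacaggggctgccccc
Tnnt1: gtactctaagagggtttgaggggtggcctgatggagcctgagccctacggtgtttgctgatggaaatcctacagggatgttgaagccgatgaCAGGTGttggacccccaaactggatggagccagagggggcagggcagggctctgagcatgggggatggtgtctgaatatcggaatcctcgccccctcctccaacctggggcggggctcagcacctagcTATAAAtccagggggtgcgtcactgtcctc
Fndc5: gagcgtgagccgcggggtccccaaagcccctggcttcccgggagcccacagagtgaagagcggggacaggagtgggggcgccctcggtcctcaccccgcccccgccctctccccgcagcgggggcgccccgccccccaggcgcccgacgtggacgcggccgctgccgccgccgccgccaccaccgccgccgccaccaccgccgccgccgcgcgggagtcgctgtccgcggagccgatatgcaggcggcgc
RefSeq starts were found for 26 members, with 31 start sites. The E-box, the site of MyoD-family factors among others, occurred in 24 of the 26 members and in 28 of the 31 windows (90.3%), against 66.2% of all 32851 promoter windows of this length. TATAAA occurred in 4 windows (12.9%), against 12.4% of all windows. The CArG box, the site of serum response factor, occurred in the windows of Acta1 and Myl3 (6.45%), against 1.47% of all windows, and the MEF2 site occurred in those of Xirp2 and Ttn (6.45%), against 0.508%. None of these letters was in the Fndc5 window. A match describes letters only. Myoz1, Actn3, Myf6, Dhrs7c, Neb, Myod1, Ampd1, Tcap, Tnni2 and Tnnt3 had no entry.

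Reads assigned to genes ranged from 20899152 to 27262440 in the 16 MGN, MGNP, TN and TNP libraries and from 54677315 to 62645459 in MGWT. Values are normalized counts, which are reads divided by 1 size factor per library. Luminal epithelium markers were expressed in every library, with summed normalized counts of 8529 to 26301 in MGN and MGNP glands, 81435 to 99947 in MGWT and 93756 to 183092 in tumors. White adipocyte markers summed to 366021, 351271, 300271 and 411034 in MGN replicates 1 to 4, to 148248, 164842, 216020 and 388588 in MGNP replicates 1 to 4 and to 4003 to 5441 in MGWT, so the wild-type glands differed from the others in cell makeup as well as genotype. Fibroblast markers summed to 130116, 464717, 263744 and 157892 in MGN and to 61228, 69967, 144221 and 82890 in MGNP. MGNP replicates 1, 2 and 3 were thus below all MGN glands for white adipocyte markers, and replicates 1, 2 and 4, the glands rich in muscle RNA, for fibroblast markers. Their part in the muscle gene levels was not tested. The 8 cardiac markers summed to 362 to 462 normalized counts in MGWT, 176 to 309 in MGN and 259 to 2107 in MGNP. Of the 8, 3 were at 10 or more in every MGN gland and 4 in every MGNP gland. Nppa and Nppb were at 0 in every MGN and MGNP gland and Myl7 did not pass 6.90 normalized counts.

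Together the 36 genes took very different shares of the reads in glands of 1 group. The share was 0.139%, 0.177%, 0.0857% and 0.0248% in MGN replicates 1 to 4 and 3.14%, 16.8%, 0.121% and 10.02% in MGNP replicates 1 to 4. It ranged from 0.00714% to 0.0114% in MGWT, from 0.00405% to 0.182% in TN and from 0.00548% to 0.0424% in TNP. Muscle transcripts were thus abundant in MGNP replicates 1, 2 and 4, whereas MGNP replicate 3 lay within the range of the MGN glands. In whole-tissue RNA, fewer muscle cells and less muscle RNA per cell cannot be told apart. Ttn, the giant elastic protein of the sarcomere, alone made up 51.7% to 58.8% of the members' reads in MGN and 45.5% to 53.8% in MGNP. Without Ttn the shares were 0.0107% to 0.0744% in MGN and 0.0574% to 7.77% in MGNP.

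**Figure D1:**
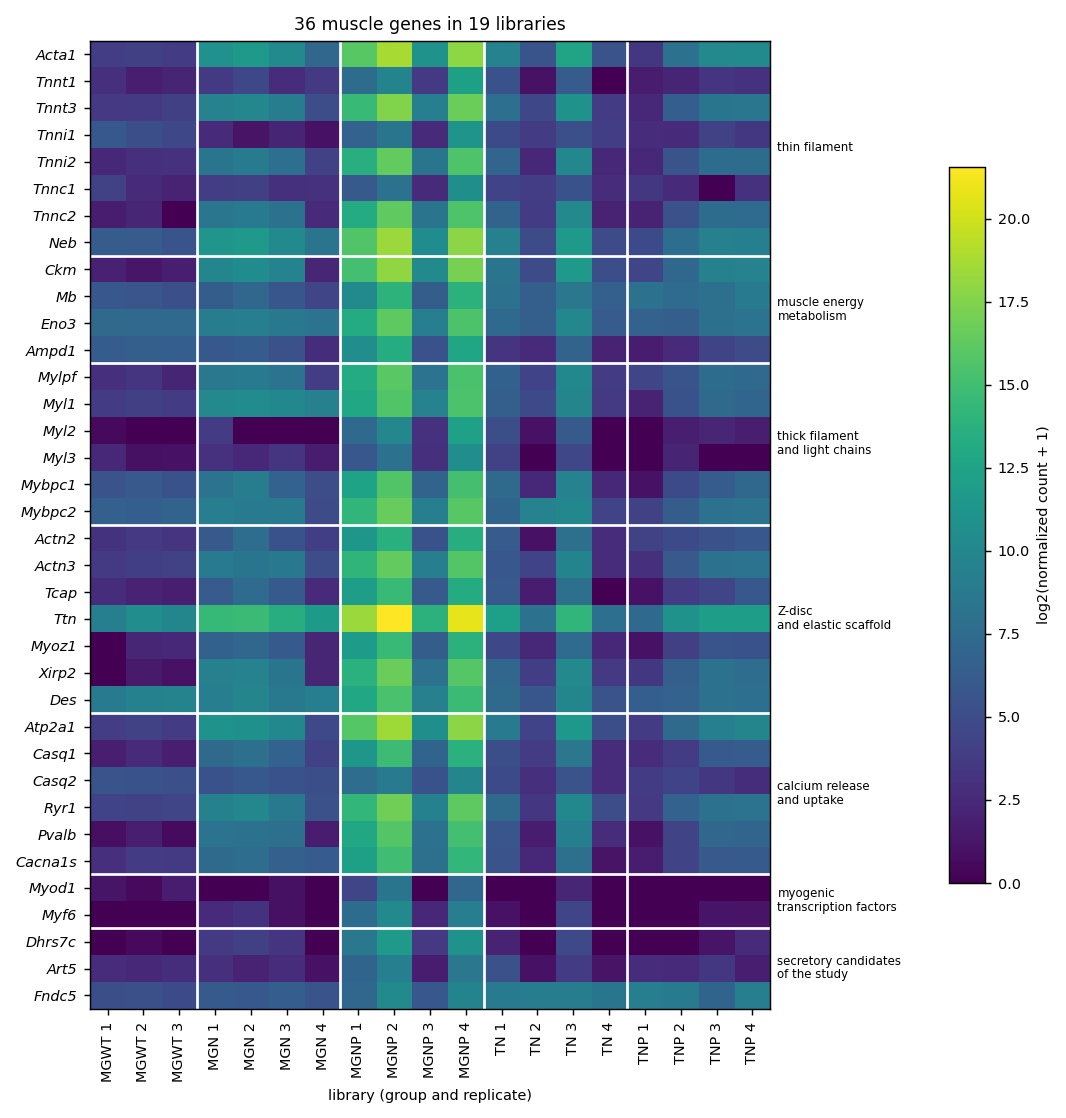
Heat map of log2(normalized count + 1) for the 36 genes (rows, by role) in the 19 libraries (columns, by group and replicate). MGNP replicates 1, 2 and 4 are the brightest columns in nearly every row, MGNP replicate 3 resembles MGN replicates 1 to 3, and MGN replicate 4 is dark for most rows except Myl1, Ttn and Des.

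Acta1 encodes skeletal alpha-actin, the core of the thin filament. It was at 14.5, 16.1 and 12.4 normalized counts in the 3 MGWT glands, at 1877, 3103, 1184 and 138.0 in MGN and at 63040, 435922, 2007 and 241401 in MGNP. In TN tumors it was at 761, 48.5, 6175 and 45.5, and in TNP tumors at 10.1, 259.8, 1142 and 1174. The wild-type glands lay below all other glands, and 1 of the 4 MGNP glands lay within the MGN range. Per exon length Acta1 had the highest level of the 36 genes in all 4 MGNP glands, at 1761, 8279, 56.2 and 4526 reads per kilobase and 1e6 reads (RPKM).

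Ckm, the muscle creatine kinase that regenerates ATP, was at 2.99, 1.46 and 2.58 normalized counts in MGWT and at 972, 1425, 824 and 4.12 in MGN. In MGNP it was at 36447, 261243, 1175 and 143794. In TN it was at 310.2, 30.6, 3090 and 35.01, and in TNP at 21.3, 146.4, 673 and 747. Ckm in MGN replicate 4 was thus close to the wild-type glands, while the other 3 MGN glands held 824 or more. TN replicate 3 was higher for Ckm than every MGN gland, and its fibroblast markers summed to 267480 normalized counts, against 28978 to 42288 in the other TN tumors.

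The transcription factors were near the limit of detection outside the muscle-rich glands. Myf6, a myogenic factor of mature fibers, was at 0 in all 3 MGWT glands, at 5.09, 8.05, 0.939 and 0 in MGN and at 191.7, 1302, 4.33 and 591 in MGNP. It was at 1.14, 0, 22.2 and 0 in TN and at 0, 0, 1.30 and 1.25 in TNP. Against a floor of 3 reads per library in MGWT, its mean was at least 365-fold higher in MGNP, and at least 183.4-fold without MGNP replicate 2. Myod1, the factor that commits cells to muscle, was at 1.28, 0.488 and 2.07 in MGWT, at 0, 0, 0.939 and 0 in MGN and at 21.9, 333, 0 and 141 in MGNP. It was at 0, 0, 4.04 and 0 in TN and at 0 in all 4 TNP tumors. Both factors were higher in MGNP replicates 1, 2 and 4 than in any other gland. Pax7 and Myf5, factors of muscle precursor cells, were at 22.8 and 27.1 normalized counts or less in every library. Myog, the factor of terminal muscle differentiation, was at 20.03, 204.1, 2.17 and 162.7 in MGNP and at 5.20 or less elsewhere. Limma called Myog higher in MGNP than in MGWT (5.27 on the log2 scale, SE 1.395, adjusted p = 0.0183), against 16.4% of all genes tested. Myog passed the filter only through the MGNP glands where it was high, so this call is a description.

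Des encodes desmin, the intermediate filament that ties Z-discs together and is also made by smooth muscle. It was at 435, 721 and 787 in MGWT, at 611, 905, 422 and 648 in MGN and at 7252, 41694, 690.0 and 27084 in MGNP. It was at 174, 53.7, 936 and 45.5 in TN and at 84.1, 112, 262 and 228 in TNP. Unlike Acta1 and Ckm, Des overlapped between MGWT and MGN. Smooth muscle and myoepithelial markers summed to 45090 to 58808 in MGWT, 10593 to 24826 in MGN and 10872 to 22866 in MGNP, and their part in the Des level was not tested.

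**Figure D2:**
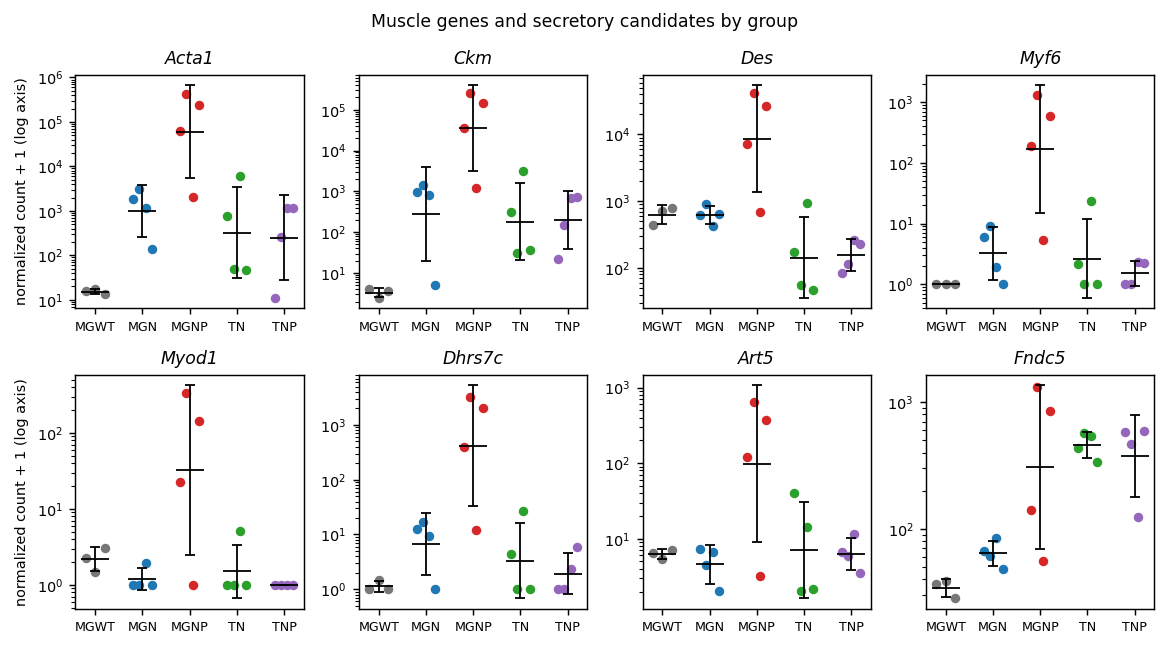
Normalized count + 1 (log axis) of 8 genes by group. Each point is a library, the horizontal line is the mean of the log2 values and the bars are ± 1 SD on that scale. For the 7 genes other than Fndc5, 3 MGNP glands stand above all other libraries and the fourth does not, while Fndc5 is between 122 and 593 normalized counts in all 8 tumors.

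MGNP against MGN asks whether mutant p53 in fibroblasts came with a different level of muscle RNA in the gland. With all 4 glands in each group, limma and edgeR called no member, whereas DESeq2 called every member tested. Of the 36 members, 31 had enough counts to be tested, and Myl3, Tnni1, Myod1, Myf6 and Art5 did not. With limma and adjustment over 18563 genes, 0 of 31 members were called higher (0.0% of all genes tested) and 0 were called lower (0.0%). The adjusted p-values of limma for the members were between 0.322 and 0.473. All 31 fold changes were positive with an unadjusted p under 0.05, their median was 5.77 on the log2 scale, and the median of all genes tested was -0.02. A member that passed the filter did so in part through the MGNP glands where it was high, so this count is a description. Without the filter, 36 of 36 had an unadjusted p under 0.05, a median of 5.46 and limma adjusted p-values from 0.364 to 0.525.

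The spread within MGNP exceeded the difference between the groups. Ckm was 222-fold and Acta1 217-fold higher in the highest than in the lowest MGNP gland. On the log2 scale Acta1 was 5.93 higher in MGNP (SE 1.69, limma adjusted p = 0.327) and Ckm 7.01 higher (SE 2.20, adjusted p = 0.341). The exact permutation test gave p = 0.0571 for both genes, with 0.0286 the smallest value that 4 against 4 samples allow. Of the 36 members, only Tnni1, Actn3, Eno3 and Cacna1s had all 4 MGNP glands above all 4 MGN glands. The lowest MGNP gland against the highest MGN gland was at 5.42 against 5.09 normalized counts for Tnni1, which is 5 reads against 4. It was at 604 against 598 for Eno3, 585 against 500.6 for Actn3 and 253 against 210.3 for Cacna1s. Over all genes tested, 2.06% were higher without overlap.

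The call depended on the tool and on 1 gland. edgeR on the recovered reads called 0 of 31 members (0.0% of all genes higher, 0.0% lower), with adjusted p-values from 0.207 to 0.242. DESeq2 called 31 of 31 higher, against 2.16% of all genes higher and 0.609% lower, with adjusted p-values from 8.79e-09 to 0.00687. Without MGNP replicate 3, limma called 30 of 36 members higher, against 1.57% of all genes higher and 0.111% lower. Its median fold change was then 7.15 on the log2 scale. Ckm, Tnnc1, Tnnc2, Pvalb, Xirp2 and Fndc5 were the 6 members not called, and all 36 had unadjusted p-values of 0.00286 or less.

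**Figure D3:**
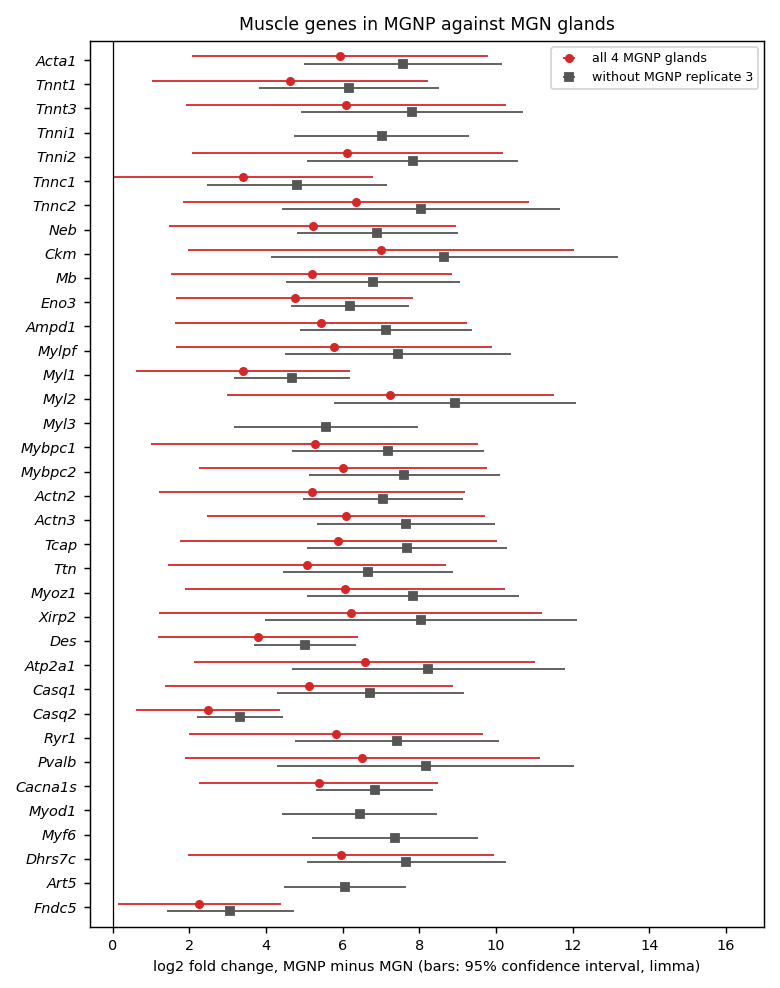
Log2 fold change, MGNP minus MGN, of each member with its 95% confidence interval from limma, with all 4 MGNP glands (circles) and without MGNP replicate 3 (squares). All estimates lie to the right of 0, the intervals are wide with all 4 glands, and Myl3, Tnni1, Myod1, Myf6 and Art5 have only the second value because they did not pass the filter.

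By role, every tested member had a positive fold change of MGNP minus MGN, and the sizes ran from 2.26 (Fndc5) to 7.24 (Myl2) on the log2 scale. In the thin filament, Neb, the ruler of actin length, was at 321 to 3127 normalized counts in MGN and 1456 to 331429 in MGNP. In the thick filament, the essential light chain Myl1 was at 675 to 1329 in MGN and 758 to 53459 in MGNP, a log2 fold change of 3.41 with an SE of 1.22. Myl1 kept 675 normalized counts in MGN replicate 4, the gland where Ckm was at 4.12. The myosin-binding proteins Mybpc1 and Mybpc2 were at 34.0 to 524 and at 31.9 to 595 in MGN, and at 116 to 52594 and 586 to 96632 in MGNP. Ttn was at 3419 to 26801 in MGN and at 14778 to 3103292 in MGNP. Among Z-disc proteins, alpha-actinin-3 (Actn3) was at 33.0 to 500.6 in MGN and 585 to 85815 in MGNP, and the titin cap Tcap at 5.15 to 180 and 69.3 to 23462. Actn2, Myoz1 and Xirp2 had log2 fold changes of 5.20, 6.07 and 6.21.

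Genes of calcium handling were also highest in MGNP replicates 1, 2 and 4. The fast-fiber calcium pump Atp2a1 was at 25.7 to 1984 normalized counts in MGN and 1706 to 371679 in MGNP. The release channel Ryr1 was at 39.1 to 1023 in MGN and 693 to 120753 in MGNP, and the voltage sensor Cacna1s at 76.2 to 210.3 and 253 to 32550. The calcium buffers Pvalb and Casq1 had log2 fold changes of 6.51 and 5.12. Of the metabolic genes, the muscle enolase Eno3 was at 304 to 598 in MGN and 604 to 75575 in MGNP, and the oxygen store Mb at 21.6 to 141 and 80.2 to 15649. Ampd1, the muscle AMP deaminase, was at 6.18 to 78.2 in MGN and 42.2 to 10433 in MGNP. Exons of 15 of the 36 members overlap those of a gene on the opposite strand. Exons of Tnnc2 share 592 bases with Ube2c, those of Atp2a1 763 bases with Rabep2, those of Ckm 451 bases with A930016O22Rik and those of Cacna1s 1309 bases with Gm37759. Whether counting used strand was not given in the sources used here, so low values of these 15 genes are uncertain.

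The 4 MGNP glands kept nearly 1 order over the members. In 30 of 36 members the order was replicate 2, then 4, then 1, then 3, which was the order of 9.01% of the 18563 genes tested. The other 6 members were Myl2, Myl3, Tnnt1, Tnni1, Tnnc1 and Casq2, each the slow-fiber or cardiac form of a pair, and in them replicate 4 was above replicate 2. Mybpc1 and Actn2, which were set against Mybpc2 and Actn3 in the other 2 pairs, kept the first order. That second order was held by 9.21% of genes tested. In the 6 genes replicate 4 was 1.84-fold (Casq2) to 6.57-fold (Tnni1) as high as replicate 2, whereas among the other 30 the ratio lay between 0.421 (Tcap) and 0.954 (Mb).

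Fast and slow troponin T separated these glands. The fast gene Tnnt3 was at 10.7, 11.7 and 15.5 normalized counts in MGWT, at 743, 1008, 579 and 33.0 in MGN and at 24689, 181586, 643 and 105530 in MGNP. In TN it was at 240.9, 24.2, 2216 and 12.8, and in TNP at 4.48, 84.2, 334 and 345. The slow gene Tnnt1 was at 6.82, 2.44 and 3.62 in MGWT, at 11.5, 25.3, 5.63 and 11.3 in MGN and at 195, 831, 11.9 and 4777 in MGNP. In TN it was at 42.0, 1.05, 77.8 and 0, and in TNP at 2.24, 3.66, 9.09 and 7.49. Tnnt1 made up 4.33% of the reads of the pair in MGNP replicate 4 (95% Wilson interval 4.20% to 4.47%), 0.455% in replicate 2 (0.420% to 0.494%) and 0.782% in replicate 1 (0.682% to 0.896%). These intervals cover counting error only.

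Troponin I gave the same split. The fast gene Tnni2 was at 4.26, 6.83 and 7.23 normalized counts in MGWT, at 326, 477, 240.4 and 17.5 in MGN and at 11706, 84897, 329 and 50445 in MGNP. It was at 132, 4.21, 1059 and 4.67 in TN and at 4.48, 46.4, 201.3 and 192 in TNP. The slow gene Tnni1 was at 59.7, 35.1 and 24.3 in MGWT, at 5.09, 1.15, 3.76 and 1.03 in MGN and at 108, 339.7, 5.42 and 2233 in MGNP. It was at 28.4, 12.6, 36.4 and 15.2 in TN and at 5.61, 4.88, 16.9 and 9.99 in TNP. Tnni1 was the only member that limma called lower in MGN than in MGWT, with a log2 fold change of -3.51 (SE 0.522, adjusted p = 0.000686). It passed the filter only through MGWT. Its recovered reads in MGN were 4, 1, 4 and 1, at or near the floor of 3 reads, so the size of this difference is uncertain. Its share of the pair was 4.24% (4.05% to 4.44%) in MGNP replicate 4, 0.399% (0.351% to 0.452%) in replicate 2 and 0.912% (0.759% to 1.10%) in replicate 1, but 77.05% to 93.3% in the 3 MGWT glands.

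For troponin C, the calcium sensor, the fast gene Tnnc2 was at 2.13, 3.90 and 0 normalized counts in MGWT, at 362, 478, 278 and 5.15 in MGN and at 10064, 81645, 318 and 49693 in MGNP. It was at 118, 12.6, 1139 and 3.501 in TN and at 3.36, 39.0, 197 and 179.8 in TNP. The slow and cardiac gene Tnnc1 was at 17.1, 5.37 and 3.10 in MGWT, at 14.0, 16.1, 6.57 and 7.21 in MGN and at 62.9, 274, 5.42 and 1746 in MGNP. It was at 19.3, 13.7, 43.4 and 5.84 in TN and at 10.1, 4.88, 0 and 7.49 in TNP. Tnnc1 in MGNP replicate 3 was below all 4 MGN glands, while Tnnc2 lay within their range. The slow share was 3.39% (3.22% to 3.58%) in MGNP replicate 4, 0.335% (0.291% to 0.385%) in replicate 2 and 0.622% (0.489% to 0.790%) in replicate 1. It was 3.73% (2.09% to 6.55%), 3.26% (1.95% to 5.39%) and 2.31% (1.12% to 4.69%) in MGN replicates 1 to 3, so for troponin C the intervals of these glands overlapped that of MGNP replicate 4.

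Of the 4 pairs, the regulatory light chains had the largest slow share in MGNP replicate 4. The fast gene Mylpf was at 6.40, 8.79 and 3.62 normalized counts in MGWT, at 390, 506, 299 and 14.4 in MGN and at 9929, 66421, 294 and 41939 in MGNP. It was at 104.5, 18.97, 1094 and 12.8 in TN and at 21.3, 46.4, 201.3 and 159.8 in TNP. The slow and ventricular gene Myl2 was at 0.427, 0 and 0 in MGWT, at 12.7, 0, 0 and 0 in MGN and at 163, 1019, 7.58 and 5050 in MGNP. It was at 35.2, 1.05, 67.7 and 0 in TN and at 0, 2.44, 3.90 and 2.50 in TNP. Myl2 made up 10.7% (10.4% to 11.1%) of the pair in MGNP replicate 4, against 1.51% (1.41% to 1.63%) in replicate 2 and 1.62% (1.39% to 1.87%) in replicate 1. In MGN replicates 2 and 3, 0 reads of 440 and 318 were Myl2, and the upper Wilson bounds were 0.866% and 1.19%. A high slow share was not particular to MGNP replicate 4. In TN replicate 1, with 121 to 249 reads a pair, the slow gene made up 14.9% (10.98% to 19.8%) of troponin T, 17.7% (12.3% to 24.9%) of troponin I, 14.05% (8.96% to 21.4%) of troponin C and 25.2% (18.4% to 33.5%) of the regulatory light chains.

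Brown adipocyte markers and 1 cardiac marker moved with the slow genes in MGNP replicate 4. The brown adipocyte markers summed to 96361 normalized counts in that gland and to 5838 to 25216 in the other 3, and Ucp1, the defining brown fat gene, was at 56926 against 2.85 to 1967. Myh6, a myosin heavy chain of atrial muscle, was at 1967 against 44.4 to 253. The 8 cardiac markers together summed to 2107 in MGNP replicate 4 and to 259 to 470 in the other 3, and Nppa and Nppb were at 0. Their part in the slow share was not tested.

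**Figure D4:**
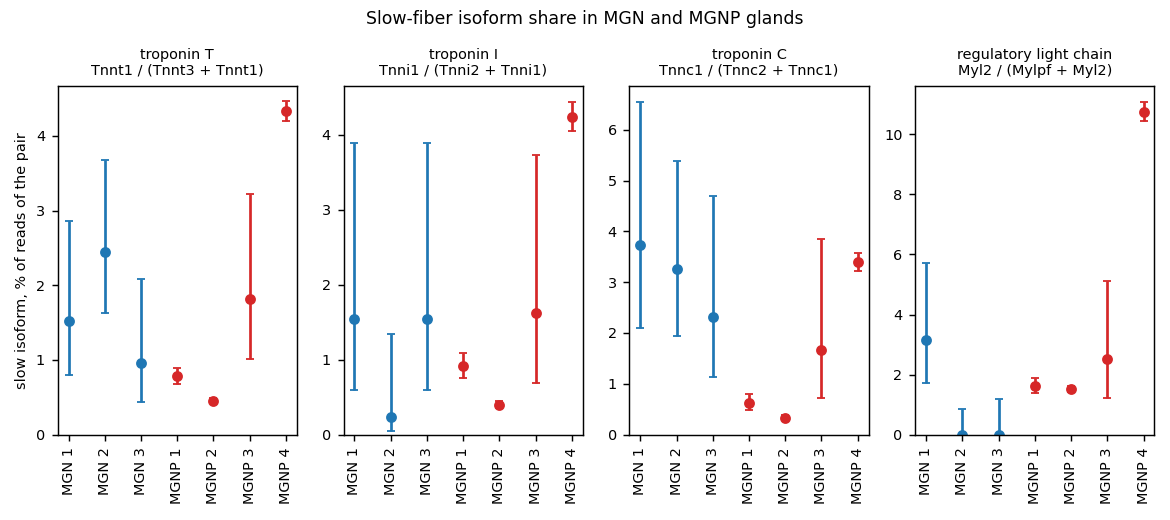
Reads of the slow isoform as a percentage of all reads of the pair in 7 MGN and MGNP glands, with 95% Wilson intervals. MGN replicate 4 is left out because its pairs held fewer than 100 reads. MGNP replicate 4 lies above MGNP replicates 1 and 2 in all 4 pairs, at 4.33%, 4.24%, 3.39% and 10.7%.

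Over the groups, the test of the fast-to-slow ratio could not make a call at this sample size. The mean log2 ratio of 8 pairs was compared between MGNP and MGN and between MGN and MGWT with two-sided exact permutation tests. The smallest p these allow is 0.0286 for 4 against 4 samples and 0.0571 for 3 against 4, so after adjustment over 16 tests no pair could pass 0.05 in either comparison. In that comparison the ratio of Tnni2 to Tnni1 was -2.45 ± 0.978 (SD, n = 3) in MGWT and 5.60 ± 1.89 (SD, n = 4) in MGN on the log2 scale, with no overlap (exact permutation p = 0.0571). The ratios of Mylpf to Myl2, Myl1 to Myl3 and Casq1 to Casq2 did not overlap either. Myl2 had 1, 0 and 0 reads in MGWT and 10, 0, 0 and 0 in MGN, so its ratio mainly followed the level of Mylpf. Myl3 had 10, 2 and 2 reads in MGWT and 6, 4, 9 and 2 in MGN. The sizes of the Myl2 and Myl3 ratios are therefore uncertain. In MGNP against MGN all 8 ratios overlapped, and the largest difference was 2.95 for Tnnc2 to Tnnc1 (exact permutation p = 0.0571, adjusted p = 0.183). Per exon length the fast lists outweighed the slow ones in every MGN and MGNP gland. The 7 slow genes gave 1.90% to 7.47% of the summed RPKM of both lists, against 34.3% to 51.6% in MGWT, where the summed levels were only 2.30 to 2.68 for the 10 fast genes and 1.25 to 2.44 for the slow genes.

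MGN against MGWT asks how the gland of a neu mouse differed from the normal gland. Limma called 20 members higher of 30 tested, against 19.1% of all genes tested, and 1 lower, against 17.9%. The median of the 30 was 3.73 on the log2 scale and that of all genes tested 0.02. Some members, such as Ckm and Xirp2, passed the filter only through the group where they were high, so these counts are a description. The 20 were Acta1, Ckm, Mylpf, Myl1, Tnnt3, Tnni2, Tnnc2, Actn2, Actn3, Atp2a1, Casq1, Ryr1, Pvalb, Tcap, Ttn, Neb, Eno3, Myoz1, Cacna1s and Xirp2, with Xirp2 at 6.56 and Ckm at 6.40 on the log2 scale (SE 1.63 and 1.80). Their limma adjusted p-values were 0.00866 and 0.0153. The best separated member was Myl1, at 13.4 to 16.1 normalized counts in MGWT and 675 to 1329 in MGN, with a log2 fold change of 6.05 (SE 0.246, limma adjusted p = 1.45e-06). Tnnt1, Tnnc1, Casq2, Mb, Ampd1, Des, Mybpc1, Mybpc2 and Fndc5 did not pass, and Myl2, Myl3, Myod1, Myf6, Dhrs7c and Art5 were not tested. Ampd1 was at 78.0 to 88.8 normalized counts in MGWT and at 6.18 to 78.2 in MGN, with a log2 fold change of -1.30 (SE 0.747, limma adjusted p = 0.166), so the groups overlapped by the highest MGN gland. Of the 36 members, 18 were higher and 1 was lower in MGN without overlap. Over all genes tested, 31.5% were higher and 29.8% lower without overlap.

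MGNP against MGWT uses the same MGNP and MGWT libraries as the comparisons above. All 36 members were tested, and limma called 30 higher, against 16.4% of all genes tested, and 0 lower, against 16.2%. The median of the 36 was 8.61 on the log2 scale and that of all genes tested 0.02. Some members, such as Ckm and Myf6, passed the filter only through the MGNP glands where they were high, so these counts are a description. Ckm was 13.41 higher (SE 1.70, limma adjusted p = 0.00103) and Acta1 11.95 higher (SE 1.69, adjusted p = 0.00159). Tnni1, Tnnc1, Casq2, Ampd1, Myod1 and Art5 were not called, and 29 members were higher in MGNP without overlap. Over all genes tested, 26.5% were higher without overlap. Without MGNP replicate 3, limma called 36 of 36 higher, against 17.7% of all genes higher and 17.3% lower.

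In tumors the muscle genes were low and uneven. Limma called 30 of 32 tested members lower in TNP than in MGNP, against 24.0% of all genes tested, and 0 higher, against 14.7%. The median was -7.50 on the log2 scale and that of all genes -0.07. Some members, such as Tnnt1 and Dhrs7c, passed the filter only through the MGNP glands where they were high, so these counts are a description. Acta1 fell by 7.92 (SE 1.95, limma adjusted p = 0.00837) and Myl1 fell by 7.90 (SE 1.55, adjusted p = 0.00284). Mb and Fndc5 were the tested members not called. In TN against MGN, limma called Myl1 lower, with a log2 fold change of -3.77 (SE 1.13, adjusted p = 0.0219), and Tnni1 and Fndc5 higher. These are 1 and 2 of 30 tested members, against 22.3% of all genes lower and 12.8% higher. Tnni1 passed the filter there only through TN, with 4, 1, 4 and 1 reads in MGN. The 30 members had a median of -1.50 with limma, but of -0.10 with edgeR and -0.12 with DESeq2, and all genes tested had a median of -0.05 with limma. Without TN replicate 3, limma called 10 lower: Myl1, Actn3, Casq1, Casq2, Ttn, Neb, Eno3, Cacna1s, Ampd1 and Des. These are 10 of 30 tested members, against 23.9% of all genes lower and 12.5% higher. With all tumors, edgeR called 2 members higher and 0 lower, against 13.5% and 21.1% of all genes, and DESeq2 called 3 higher and 0 lower, against 14.3% and 21.9%.

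TNP against TN gave no call among 28 tested members with limma, higher (0.0361% of all genes tested) or lower (0.00601%). At an unadjusted p under 0.05, 0 were higher and 1 was lower with limma, and edgeR (0.0% of all genes higher, 0.0% lower) and DESeq2 (0.307% higher, 0.204% lower) called 0. The interaction contrast sets TNP minus MGNP against TN minus MGN. Limma called 0 of 35 members (0.0% of all genes higher, 0.0% lower), with 29 lower at an unadjusted p under 0.05 and a median of -5.79 on the log2 scale. edgeR called 0 of 35 (0.0% of all genes higher, 0.0% lower), and DESeq2 called 35 lower, against 1.39% of all genes lower and 0.258% higher. Without MGNP replicate 3, limma called 11 of 36 lower, against 0.927% of all genes lower and 0.0557% higher. The gland values above enter both differences.

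Some members were present in tumors that held little other muscle RNA. Mb, the oxygen-binding protein myoglobin, was at 91.7 to 379 normalized counts in TN and 185 to 469 in TNP, above the 38.2 to 58.4 of MGWT. Exons of Mb share 412 bases with Gm49540 on the opposite strand, so its low values are uncertain. Mybpc2 was at 751 in TN replicate 2, where Ckm was at 30.6 and Mybpc1 at 4.21. It was at 120 and 18.7 in TN replicates 1 and 4 and at 1050 in TN replicate 3, where Ckm was at 3090. Eno3 was at 1009 in TN replicate 3 and at 162, 90.6 and 70.03 in TN replicates 1, 2 and 4. It was at 93.9 to 295 in TNP and at 160 to 177 in MGWT.

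Relative to Ckm, most members stayed within 2-fold of a common proportion where Ckm itself was well covered. In each of the 12 libraries with at least 100 Ckm reads, the ratio of every other member to Ckm was set against its median in MGNP replicates 1, 2 and 4. The limit of 100 reads was chosen after the values were seen. In MGNP replicate 3, which did not set the reference, 27 of 35 ratios were within 2-fold, 7 were above and 1 was below. In MGN replicates 1, 2 and 3, 25, 26 and 25 of 35 were within 2-fold. In tumors, 20 were within 2-fold in TN replicate 1 and 27 in TN replicate 3, and 22, 26 and 29 in TNP replicates 2, 3 and 4. The lowest counts were in TN replicate 1 and TNP replicate 2, where 14 and 13 ratios were above 2-fold and Ckm had 273 and 120 reads. Myl3, Tnnc1, Casq2 and Fndc5 were above 2-fold in MGN replicates 1 to 3, MGNP replicate 3 and TN replicate 3, and Myl1 and Des in those 4 glands.

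Dhrs7c was highest in the libraries where Ckm was highest. It encodes a short-chain dehydrogenase of the sarcoplasmic reticulum. It was at 0, 0.488 and 0 normalized counts in MGWT, at 11.5, 16.1, 8.45 and 0 in MGN and at 388, 3179, 10.8 and 2026 in MGNP. It was at 3.41, 0, 26.3 and 0 in TN and at 0, 0, 1.30 and 4.99 in TNP. Its order over the MGNP glands was that of Ckm, and the only MGN gland without it was replicate 4. Dhrs7c amounted to 1.18%, 1.13% and 1.03% of Ckm in MGN replicates 1 to 3 and to 1.07%, 1.22%, 0.922% and 1.41% in MGNP, and to 0.850% in TN replicate 3. In TNP replicates 3 and 4, where it had few reads, it amounted to 0.193% and 0.669%.

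Art5, an ADP-ribosyltransferase, followed Ckm in the muscle-rich glands and had a low level elsewhere. It was at 5.54, 4.39 and 6.20 normalized counts in MGWT, at 6.37, 3.45, 5.63 and 1.03 in MGN and at 119, 641, 2.17 and 371 in MGNP. It was at 39.8, 1.05, 13.1 and 1.17 in TN and at 5.61, 4.88, 10.4 and 2.50 in TNP. MGNP replicate 3 was below the wild-type glands for Art5, and TN replicate 1 was the highest library outside MGNP. Art5 amounted to 0.327%, 0.245% and 0.258% of Ckm in MGNP replicates 1, 2 and 4 and to 12.8% in TN replicate 1.

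Fndc5 encodes the membrane precursor of irisin, a factor known from exercised muscle. It was at 35.8, 37.6 and 27.4 normalized counts in MGWT, at 66.2, 59.8, 83.6 and 47.4 in MGN and at 139, 1310, 55.2 and 847 in MGNP. It was at 435, 571, 536 and 338 in TN and at 581, 465, 122 and 593 in TNP. All 8 tumors were above all MGN glands, including tumors with few Ckm counts, and MGNP replicate 1 was lower than 7 of them. In TN against MGN it was 2.85 higher on the log2 scale (SE 0.259, limma adjusted p = 0.000111, exact permutation p = 0.0286, the smallest possible), and TNP against MGNP gave 0.29 (SE 1.005, adjusted p = 0.820). Fndc5 amounted to 0.382%, 0.502% and 0.589% of Ckm in MGNP replicates 1, 2 and 4, to 4.70% in MGNP replicate 3 and to 1869% in TN replicate 2.

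Over the 8 MGN and MGNP glands the candidates were set against Ckm on log2 values. Dhrs7c had r = 0.970 (exact permutation p = 4.96e-05, adjusted over 3 genes 0.000149) and rho = 0.976 (exact permutation p = 0.000397, adjusted 0.00119). Art5 had r = 0.909 (exact permutation p = 0.000645, adjusted 0.000645) and rho = 0.810 (exact permutation p = 0.0218, adjusted 0.0279). Fndc5 had r = 0.841 (exact permutation p = 0.000570, adjusted 0.000645) and rho = 0.786 (exact permutation p = 0.0279, adjusted 0.0279). Without MGN replicate 4 and MGNP replicate 2, the glands farthest from the median of Ckm, r over the other 6 was 0.999, 0.976 and 0.904. An r as high as that of the 3 candidates was reached by 0.156%, 0.636% and 1.98% of the 18563 genes tested. Within a group only 4 glands were available, too few for a value, and the relation pooled glands of both groups. The study named the candidates from genes higher in MGNP than in MGN in these same glands, where Ckm also had a positive fold change. That choice favored a high pooled r, so the p-values and shares given here are a description.

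In MGNP against MGN none of the 3 candidates was called by limma with all glands. Dhrs7c was 5.95 higher on the log2 scale (SE 1.75, limma adjusted p = 0.337) and Fndc5 2.26 higher (SE 0.930, adjusted p = 0.441). Art5 did not pass the filter and without it was 4.41 higher (SE 1.47, limma adjusted p = 0.423). DESeq2 called Dhrs7c (7.33, adjusted p = 0.000123) and Fndc5 (3.24, adjusted p = 0.00371). Art5 was not tested with DESeq2 here, because the same filter applied. The study, which used DESeq2, reported all 3 as higher in MGNP at an adjusted p under 0.05. Without MGNP replicate 3, limma called Dhrs7c (7.66, adjusted p = 0.0193) and Art5 (6.06, adjusted p = 0.0144), and Fndc5 missed (3.07, adjusted p = 0.0998).

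**Figure D5:**
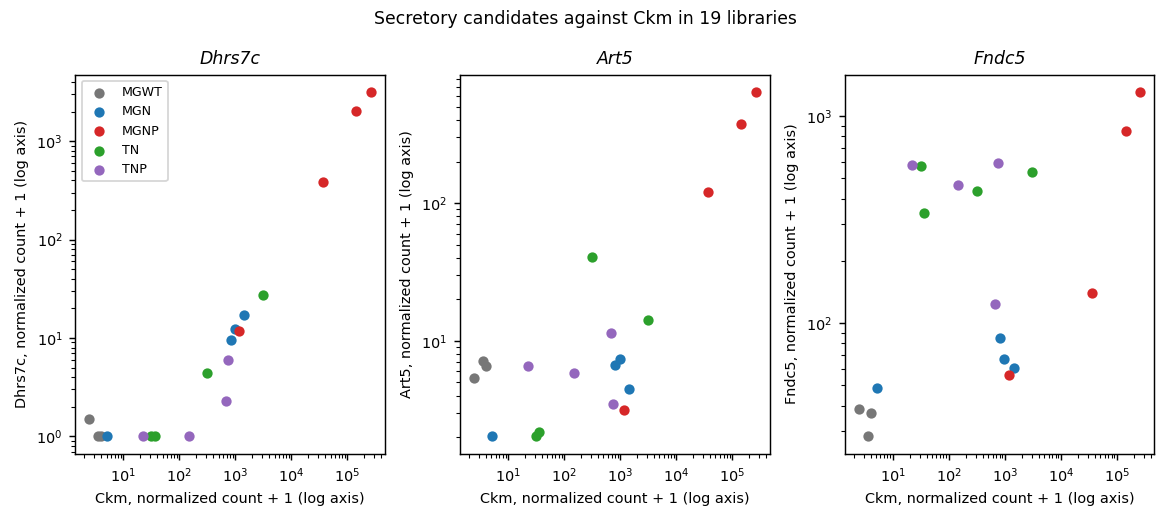
Dhrs7c, Art5 and Fndc5 against Ckm in the 19 libraries, as normalized count + 1 on log axes, with 1 point per library. Dhrs7c is higher where Ckm is higher, Art5 is above all other libraries in MGNP replicates 1, 2 and 4, and the 8 tumors of Fndc5 lie apart from the glands at 122 to 593 normalized counts.

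A list of 47 other muscle genes, none of them a member, was set beside the members. In MGNP against MGN, 43 were tested, all 43 had positive fold changes and limma called 0, with a median of 4.86 on the log2 scale. The largest fold changes were those of Myoz2, a Z-disc protein of slow fibers, at 7.06 (SE 1.64, limma adjusted p = 0.305), and Pgam2, the muscle phosphoglycerate mutase, at 6.34 (SE 1.70, adjusted p = 0.327), and no fold change was negative. On recovered reads in MGNP against MGN, edgeR called 0 of the 43, against 0.0% of all genes. DESeq2 called 38 of the 43 higher, against 2.16% of all genes higher and 0.609% lower. Without MGNP replicate 3, limma called 37 of 45 higher, against 1.57% of all genes higher and 0.111% lower. In MGN against MGWT limma called 11 of 34 higher, against 19.1% of all genes, and 6 lower, against 17.9%. The median there was 0.10 on the log2 scale with 19 of 34 positive, whereas the members had a median of 3.73 with 27 of 30 positive. In TNP against MGNP limma called 37 of 39 lower, against 24.0% of all genes.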

How the data were processed

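The members and all gene lists were chosen with earlier results of these data known. Per the labels and the study's methods, reads were 75-bp pairs, aligned to GRCm38 with Bowtie2 and TopHat2 (version 2.1.1, from the submitters' processing notes). The library kit is a total RNA kit in the sample records and an mRNA kit in the study's methods. The counting tool, annotation and use of strand are not given in the sources used here.

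Per the study's methods, the authors' deposited signal is read counts per gene after scaling with DESeq2 size factors, for 46078 genes. The values are whole multiples of 1 step per library, so reads were recovered, and 100% of values were whole within a tolerance of 0.05 reads in all 19 libraries. Size factors ranged from 0.701 to 1.06 in the 16 other libraries and from 1.94 to 2.34 in MGWT, so the values carry the authors' scaling. Gene symbols, positions and exons came from the GRCm38 annotation, which matched 45143 identifiers (97.97%).

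For each pair of groups alone, limma (version 3.58.1, eBayes with trend) was fitted to log2(normalized count + 1). A gene entered when the number of samples with 10 or more normalized counts reached the size of the smaller group. Benjamini-Hochberg adjustment ran over all genes tested, and genes were called at an adjusted p under 0.05 and 2-fold. DESeq2 (version 1.42.0) and the quasi-likelihood test of edgeR (version 4.0.16) were alternatives on recovered reads, beside other pseudocounts, filters, scaling, a single fit, a replicate block and each sample left out. Single members, isoform ratios and correlations were tested with two-sided exact permutation tests in scipy (version 1.17.1). Fold changes of low genes are understated by the pseudocount. A level at or under 3 reads was taken as the floor. The fits were tested on simulated data.

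All 36 members were named by role. Values in every library were given for Acta1, Ckm, Myod1, Myf6, Des, Dhrs7c, Art5, Fndc5 and both genes of 4 isoform pairs, and the other muscle genes by counts and the largest rises and falls in MGNP minus MGN.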

Additional observations from a re-analysis of the deposited data

Results flagged for a closer look

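A library that stood far from the other 3 of its group, relative to the range of the 4, was found in 12 of 139 combinations of member and group. For independent and normally distributed values, chance alone gives such a gap in about 1 of 20 groups. The members varied together over the libraries, so the 12 are not independent and were not tested against that rate. In 9 of the 12 the library was MGN replicate 4 and its value was the lowest. There Ckm was at 4.12 normalized counts, Mylpf at 14.4, Tnnt3 at 33.0, Tnnc2 at 5.15, Actn3 at 33.0, Atp2a1 at 25.7, Pvalb at 2.06, Xirp2 at 4.12 and Mybpc2 at 31.9, while the other 3 MGN glands were at 245 to 1984 for these genes. Myl2 stood apart in MGN replicate 1 at 12.7 normalized counts with the others at 0. Myod1 stood apart in TN replicate 3 at 4.04 with the others at 0. Fndc5 stood apart in TNP replicate 3 at 122, the lowest of the TNP tumors.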

How the results depend on the processing

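With members called higher or lower in each comparison as the result, most alternatives left the counts within 1.5 times those of limma with all samples. The exceptions were as follows. In MGNP against MGN, the 0 members called higher became 31 with DESeq2, and leaving out 1 sample gave 0 to 30, the 30 being without MGNP replicate 3. In MGN against MGWT, a single fit of all 5 groups called 10 members higher, keeping genes with a mean of 50 or more called 0 lower, and leaving out 1 sample gave 14 to 23 higher and 1 lower. In TN against MGN, the filter at 50 and the single fit each called 1 higher, edgeR and DESeq2 called 0 lower, and leaving out 1 sample gave 2 to 3 higher and 0 to 10 lower, with 0 without MGN replicate 2 or TN replicate 2 and 10 without TN replicate 3. In the interaction, DESeq2 called 35 lower and leaving out 1 sample gave 0 to 11, the 11 being without MGNP replicate 3. The cause of these differences was not tested. Leaving out 1 sample gave 23 to 36 members higher in MGNP against MGWT, 27 to 35 lower in TNP against MGNP and 0 in TNP against TN. No fold change of a called member turned its sign under any alternative run. The isoform ratios could not pass an adjusted p of 0.05 in this design, so only their values are compared. The ratio of Tnni2 to Tnni1 in MGNP minus MGN ranged from -0.18 to 1.53 and that of Mylpf to Myl2 from -2.32 to 0.12.

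The replicate block called 0 members in MGNP against MGN, 23 higher and 1 lower in MGN against MGWT, 27 higher in MGNP against MGWT, 2 higher and 1 lower in TN against MGN, 28 lower in TNP against MGNP and 0 in TNP against TN. Samples with the same number correlated in their deviations from the group means at -0.28 to 0.32, so the numbers were not taken to pair samples. Genes of 0 to 3 reads, such as Myod1 outside the muscle-rich glands, could not show a difference at this depth.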
